A study of Mus musculus with 3 samples.

Results

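The clustered replication-dependent histone genes encode the linker histone H1 and the core histones H2A, H2B, H3 and H4 that package newly copied DNA. They were taken as the symbols of the deposited count table that begin with Hist1h, Hist2h, Hist3h or Hist4h, and 70 of the 44788 symbols listed met this rule. The members comprised 6 H1, 20 H2A, 19 H2B, 12 H3 and 13 H4 genes. All 70 matched a RefSeq gene, and 67 were annotated as protein-coding. Hist1h2aj, Hist1h2al and Hist3h2bb-ps were annotated as pseudogenes.

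The measurements were RNA-seq gene counts from 3 libraries (replicates 1, 2 and 3) of splenic T lymphocytes of female Balb/c mice aged 6 to 8 weeks. The cells were isolated with magnetic beads against the T cell surface protein Thy1, exposed for 15 h to LZ-8 in RPMI medium with 2% fetal bovine serum. Ling Zhi-8, as LZ-8 is also called, is an immunomodulatory protein of the fungus Ganoderma lucidum that acts as a T cell mitogen; its concentration is not given in the sources used here. There was no second group among the 3 libraries, so the values describe LZ-8-treated cells and not a response to LZ-8. Nothing in the labels ties the replicates to separate mice or cultures, and p-values then measure only the spread between these libraries, which may be technical.

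Messenger RNAs of the clustered histone genes are made mainly in S phase, when DNA is replicated. Most end in a short stem-loop that is bound by the stem-loop binding protein SLBP, where other messenger RNAs carry a poly(A) tail, and the U7 small nuclear ribonucleoprotein guides the cut just after it. In human cells some of these genes are also known to make spliced or polyadenylated messages, particularly in differentiated cells. Replacement histones, such as the H2A.Z and macroH2A forms, come from dispersed genes with polyadenylated messages that do not depend on replication.

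The stem-loop is shown for 6 genes on which the results below turn, read in the sense strand of GENCODE vM21 transcripts (GRCm38, the assembly that mm10 denotes), with the 16 bases of the stem-loop in capitals and 5 bases on each side.
Hist3h2a, chr11:58955167-58955192, plus strand: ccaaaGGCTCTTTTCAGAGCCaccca
Hist1h1c, chr13:23739507-23739532, plus strand: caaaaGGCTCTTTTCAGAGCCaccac
Hist1h2ao, chr13:21810893-21810918, plus strand: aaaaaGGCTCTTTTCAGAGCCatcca
Hist1h3c, chr13:23745042-23745067, minus strand: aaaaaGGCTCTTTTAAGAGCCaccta
Hist4h4, chr6:136803993-136804018, minus strand: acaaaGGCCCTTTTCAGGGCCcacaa
Hist2h4, chr3:96262934-96262959, minus strand: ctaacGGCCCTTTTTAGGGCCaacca

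A stem-loop was found in a transcript model of 46 of the 70 members, against 56 of 21901 protein-coding genes (0.256%) in the whole annotation, and it had 8 distinct sequences. The form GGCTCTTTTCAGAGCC occurred in 26 members of the H1, H2A, H2B and H3 types and in no H4 gene. The form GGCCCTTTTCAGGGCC occurred in 7 members, all H4 genes. The form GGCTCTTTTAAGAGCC was carried by 6 members, 3 of them H3 genes. A missing match says only that the model's letters do not hold the motif: the models of 11 members stop at the coding sequence and cannot include it.

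The clustered histone genes were read at very low levels. Replicates 1, 2 and 3 held 19041670, 12669690 and 14715992 counts in all, of which 370, 192 and 314 fell on the 70 members. Their summed level was 19.4, 15.2 and 21.3 CPM (counts per 1000000 counts), with 95% Poisson intervals of 17.5 to 21.5, 13.1 to 17.5 and 19.04 to 23.8 CPM. The mean was 18.6 ± 3.17 CPM (SD, n = 3), or 0.00186 ± 0.000317% of all counts. Replicate 2 was the lowest, and its interval did not overlap that of replicate 3. Intervals and detection limits cover counting error only. A count of 0 allowed a level of up to 0.158, 0.237 and 0.204 CPM (3 counts) in replicates 1, 2 and 3. In these bulk libraries, fewer cells that express a gene and less RNA per cell cannot be told apart.

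At least 1 read fell on 59 of the 70 members, against 51.2% of all symbols, and 26 members had a read in every library. Replicates 1, 2 and 3 held no read for 17, 36 and 29 members. Over the 3 libraries together, 11 members had no read, 23 had 1 to 3, 18 had 4 to 10, 14 had 11 to 30 and 4 had over 30. A mean of at least 1 CPM was reached by 4 members, against 50.4% of protein-coding symbols. The median member stood at 0.0726 CPM, the median protein-coding symbol at 1.12 CPM. Per kilobase of exon, these medians were 0.135 and 0.321 CPM per kb.

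By locus, the large Hist1 cluster on chromosome 13 held 56 members and 37.4 ± 2.21% of the members' reads (SD, n = 3). The Hist2 cluster on chromosome 3 held 10 members and 30.3 ± 1.16% of the reads. The Hist3 cluster on chromosome 11 held 3 members and 29.4 ± 1.11% of the reads, most of them on Hist3h2a (226 reads). Hist4h4 on chromosome 6, the single gene of its locus, held 3.04 ± 2.07%.

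**Figure D1:**
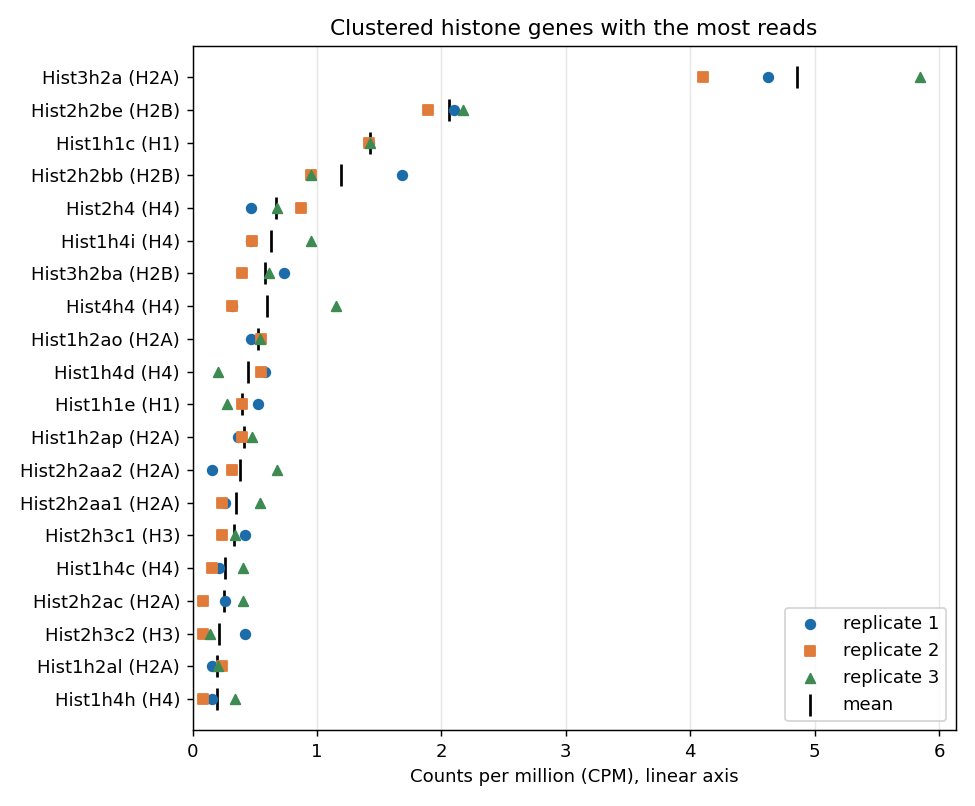
Level of the 20 clustered histone genes with the most reads, in CPM on a linear axis, with 1 symbol for each library and a bar at the mean. Hist3h2a lies at 4.10 to 5.84 CPM, and the genes from Hist2h4 downward average under 1 CPM.

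Linker histone H1 binds DNA where it enters and leaves the nucleosome, and 1 gene held most of its reads. Hist1h1c (H1f2 in RefSeq), at chr13:23738808-23740367 (plus strand), had 27, 18 and 21 reads in replicates 1, 2 and 3, at 1.42 ± 0.00465 CPM (SD, n = 3). Its 3 libraries were the most alike of the 4 genes above 1 CPM. Hist1h1e had 10, 5 and 4 reads, at 0.397 ± 0.127 CPM. Hist1h1d had 1, 0 and 3 reads and Hist1h1b had 2, 0 and 0, so both lay at or under the detection limit. The H1 genes together held 41, 23 and 28 reads, at 1.96 ± 0.175 CPM, or 10.7 ± 1.57% of the members' reads.

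H2A, which forms dimers with H2B in the nucleosome, was the type with the most reads. Hist3h2a (H2aw in RefSeq), a gene of the Hist3 cluster at chr11:58954685-58956830 (plus strand), had 88, 52 and 86 reads, at 4.62, 4.10 and 5.84 CPM. It ranked 10753rd among all symbols and alone made up the larger part of the H2A reads. Its exons overlap those of Trim17 on the same strand, which had 0, 0 and 1 reads. Hist1h2ao (9, 7 and 8 reads) and Hist1h2ap (7, 5 and 7 reads) were alike in every library, at 0.523 ± 0.0438 and 0.413 ± 0.0562 CPM. By stretches of 31 bases, 93.8% and 93.4% of their annotated sequence also occurs in other genes, so their counts may not be independent. Hist2h2aa2 had 3, 4 and 10 reads, at 0.384 ± 0.268 CPM. H2A genes together held 148, 79 and 146 reads, at 7.98 ± 1.85 CPM, or 42.5 ± 3.47% of the members' reads.

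H2B had the most members without a read, 6 of 19, and its reads were concentrated on Hist2h2be and Hist2h2bb. Hist2h2be (H2bc21 in RefSeq), at chr3:96221119-96223738 (plus strand), had 40, 24 and 32 reads, at 2.06 ± 0.145 CPM (SD, n = 3). Hist2h2bb (H2bc18 in RefSeq), at chr3:96269752-96270132 (plus strand), had 32, 12 and 14 reads, at 1.68, 0.947 and 0.951 CPM, with replicate 1 the highest. All of its annotated sequence also occurs in other genes, and it overlaps the antisense gene Gm20628 and the long noncoding gene Gm42743, so its reads may include theirs. Hist3h2ba had 14, 5 and 9 reads, at 0.580 ± 0.172 CPM. Hist1h2bc had 1, 0 and 5 reads, at 0.131 ± 0.183 CPM. H2B genes together held 99, 46 and 62 reads, at 4.35 ± 0.793 CPM, or 23.5 ± 3.53% of the members' reads.

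H3 had the fewest reads of the 5 types, and none of its 12 genes reached 0.5 CPM. Hist2h3c1 had 8, 3 and 5 reads, at 0.332 ± 0.0919 CPM (SD, n = 3), and Hist2h3c2 had 8, 1 and 2. Hist2h3b had 3, 1 and 4 reads and Hist1h3c had 4, 1 and 2. H3 genes together held 37, 8 and 15 reads, at 1.94, 0.631 and 1.02 CPM. The 95% Poisson intervals of replicates 1 and 2 (1.37 to 2.68 and 0.273 to 1.24 CPM) did not overlap, whereas that of replicate 3 (0.570 to 1.68 CPM) overlapped both.

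H4, the partner of H3 in the nucleosome core, was read from several genes at similar levels. Hist2h4 had 9, 11 and 10 reads, at 0.673 ± 0.198 CPM (SD, n = 3). Hist1h4i had 9, 6 and 14 reads, and Hist1h4d had 11, 7 and 3, so replicate 3 was the highest library for Hist1h4i and the lowest for Hist1h4d. Hist4h4 had 6, 4 and 17 reads, at 0.315, 0.316 and 1.16 CPM, with replicate 3 apart from the others. H4 genes together held 45, 36 and 63 reads, at 2.36, 2.84 and 4.28 CPM. The intervals of replicates 1 and 3 (1.72 to 3.16 and 3.29 to 5.48 CPM) did not overlap, whereas that of replicate 2 (1.99 to 3.93 CPM) overlapped both. Hist4h4 supplied 17 of the 63 H4 reads in replicate 3, against 6 of 45 in replicate 1, and intervals without it were not computed. By summed level alone, H3 was highest in replicate 1 and H4 in replicate 3. Intervals that did not overlap were found in H2A, H3 and H4, whereas those of H1 and H2B overlapped between all libraries.

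**Figure D2:**
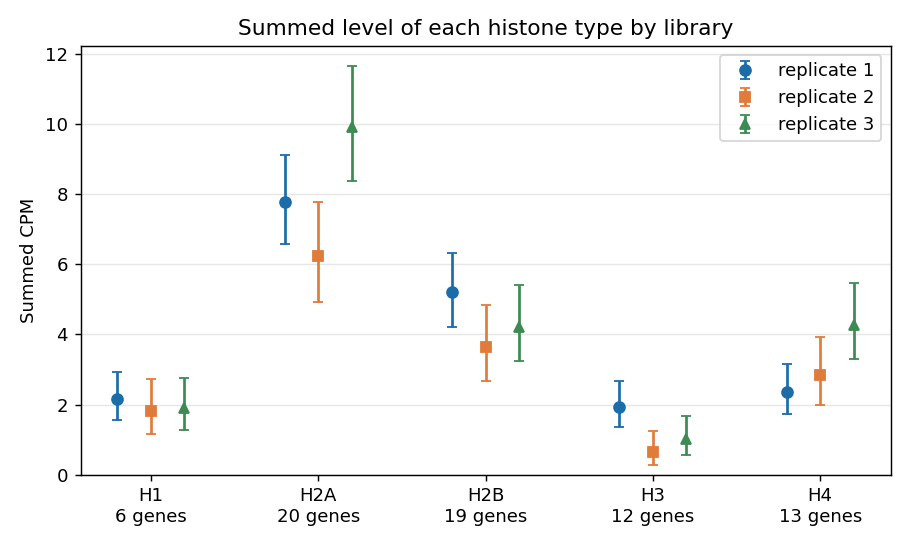
Summed level of the genes of each histone type in CPM, with 1 symbol for each library and 95% Poisson intervals as bars. H2A is highest in each library, and the order of the libraries differs between H3 and H4.

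The members with no read in any library were Hist1h1t, Hist2h2ab, Hist1h2ba, Hist1h2bb, Hist1h2bf, Hist1h2bg, Hist1h2bj, Hist1h2bk, Hist1h3g, Hist1h4f and Hist1h4j. Hist1h1t and Hist1h2ba encode histones of the testis. At this depth, none of the 11 can be told from a low level under the detection limit.

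Per kilobase of GENCODE exon, which allows levels of different genes to be set side by side, the order of the leading members changed. Hist2h2bb stood at 3.13 CPM per kb, Hist3h2a at 2.26, Hist1h2ao at 1.09, Hist3h2ba at 0.945 and Hist1h1c at 0.911. The choice of gene model matters here: GENCODE gives Hist3h2a 2146 bases, of which 1643 follow the stem-loop, whereas the RefSeq gene spans 508 bases and ends 5 bases after it. Over the RefSeq length Hist3h2a again led, at 9.56 CPM per kb, followed by Hist2h2bb at 2.42 and Hist1h1c at 1.96. The order by CPM did not return beyond Hist3h2a. Hist2h2be, next to Hist3h2a by mean CPM, stood at 0.785 CPM per kb of GENCODE exon. Over the RefSeq length it stood at 0.771, below Hist2h4 at 1.75. RefSeq ended 5 bases after the stem-loop in 31 of the 46 members that have one. Which annotation was used for counting is not given in the sources used here.

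Clustered genes were compared with replacement histone genes of the same type as the log2 ratio of summed reads in each library. Clustered H3 genes had 37, 8 and 15 reads against 5501, 3799 and 4251 reads of the replacement H3 genes H3f3a and H3f3b. The log2 ratio was -8.03 ± 0.81 (SD, n = 3), and -6.07 per kilobase. It was -12.35 when only H3 genes that share under 50% of their 31-base words with other genes were kept, which left 1 gene with 2 reads. Clustered H2A genes had 148, 79 and 146 reads against 1148, 729 and 810 reads of H2afz and H2afv, which encode H2A.Z forms, a log2 ratio of -2.87 ± 0.37, and -1.95 per kilobase. Other listed H2A variant genes, such as H2afy, H2afx and H2afj at 320, 66.6 and 20.1 CPM, were not part of that sum. Clustered H1 genes had 41, 23 and 28 reads against 190, 153 and 144 reads of H1f0, the replacement linker histone, a log2 ratio of -2.42 ± 0.26, and -2.08 per kilobase. Each of these ratios was below 0 in all 3 libraries.

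Among the clustered genes themselves, H2A had more reads than H2B in all 3 libraries, at a log2 ratio of 0.86 ± 0.33 (SD, n = 3), and 0.68 per kilobase. This direction rested on Hist3h2a: without it, H2A had 60, 27 and 60 reads against 99, 46 and 62 of H2B, a log2 ratio of -0.51 ± 0.40. The ratio of H2A to H2afz and H2afv without it was -4.24 ± 0.49. The ratio of H3 to H4 was -0.28, -2.10 and -2.03 in replicates 1, 2 and 3, so both types were nearly level in replicate 1 and H3 was lower in the others. Over genes sharing under 50% of their words its mean was -5.55, with H3 again down to 2 reads. For each of the 5 ratios, the two-sided exact sign-flip permutation test gave p = 0.25 (0.25 after Benjamini-Hochberg adjustment over the 5). That is the smallest p that 3 libraries allow, so none of them could pass a threshold.

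The 70 clustered genes were also set beside other genes of histone supply. Their median was 0.0726 CPM (0.135 CPM per kb), against 10.9 CPM (5.98 CPM per kb) for the 14 replacement histone genes. The highest levels among the replacement genes were those of H2afy (macroH2A), at 320 ± 16.1 CPM, and H3f3b, at 245 ± 4.58 CPM (SD, n = 3). H2afx stood at 66.6 ± 2.23 CPM. It is known to make both a stem-loop and a polyadenylated message, and its transcript models hold the stem-loop. No read fell on H1foo and H1fnt, which are named here because of that.

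Of the genes that transcribe and process histone messages, all 18 found in the table reached 1 CPM, with a median of 70.3 CPM (12.4 CPM per kb), against 27.0 CPM over all 13500 genes with at least 1 CPM in at least 2 libraries. The highest members were Srrt, Sympk, Upf1 and Ncbp1. Chosen after its value was seen, Slbp, the stem-loop binding protein, stood at 57.8 ± 2.65 CPM, and Npat, which activates histone gene transcription, at 59.9 ± 1.75 CPM (SD, n = 3). All 22 histone chaperone genes reached 1 CPM, against 50.4% of protein-coding symbols, with a median of 209 CPM (22.9 CPM per kb). They were led by Npm1 and Ssrp1, at 696 and 499.5 CPM.

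Genes of DNA replication were read as well. All 28 S phase genes reached 1 CPM and 9 reached 100, with a median of 34.1 CPM (8.75 CPM per kb). Of all 20086 protein-coding symbols, 50.4% reached 1 CPM and 2245 reached 100. Mcm5, Mcm2, Mcm4 and Mcm3, subunits of the replicative helicase, led the list at 337, 335, 315 and 302 CPM. All 15 genes of the G2 and M phases reached 1 CPM and none reached 100, with a median of 6.03 CPM (1.22 CPM per kb). The clustered histone genes had a lower median than either list, both in CPM and per kilobase, although their leading members overlapped the lower genes of both. Hist3h2a, for example, averaged 2.26 CPM per kb, against 0.373 CPM per kb for the S phase gene Ccne2 and 0.323 CPM per kb for the mitotic gene Ttk, the genes of each list with the lowest CPM. Whether polyadenylated RNA was selected is not given in the sources used here.

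**Figure D3:**
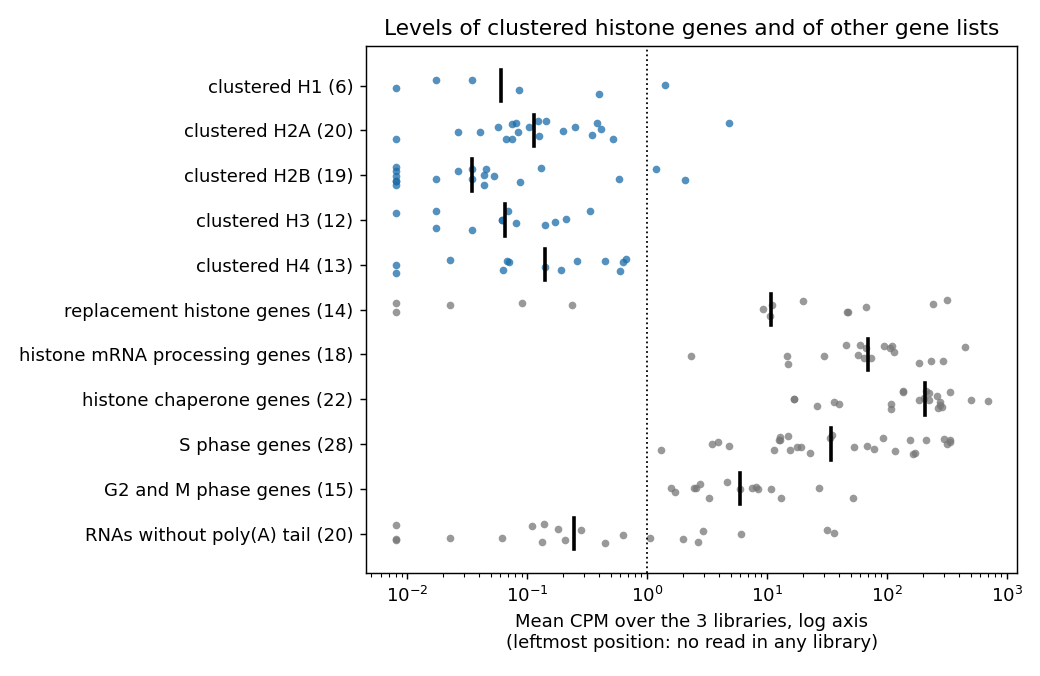
Mean level of each gene in CPM on a log axis, for the 5 types of clustered histone genes (blue) and 6 other gene lists (grey), with a bar at each median and a dotted line at 1 CPM. Each type of clustered gene has its median below 1 CPM, while the replacement, processing, chaperone, S phase and G2 and M lists have theirs above it.

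A list of 20 further RNAs that carry no poly(A) tail, many of them very short, had a median of 0.245 CPM and 7 genes at 1 CPM or more. Per kilobase of exon its median was 1.83 CPM per kb, above the 0.321 CPM per kb of protein-coding symbols and the 0.135 CPM per kb of the clustered histone genes. Rn7s1 and Rn7s2, RNAs of the signal recognition particle, stood at 36.3 ± 5.99 and 31.6 ± 9.74 CPM (SD, n = 3). Rn7sk, which restrains transcription elongation, stood at 6.11 ± 0.642 CPM, and Rmrp at 2.92 ± 1.06 CPM. The sum of this list was 77.0, 69.8 and 108 CPM in replicates 1, 2 and 3, highest in replicate 3 and lowest in replicate 2, as was the sum of the clustered histone genes. Its part in the difference between the libraries was not tested.

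The 3′ ends of the gene models were then compared with the reads, a comparison made after the read counts had been seen. A poly(A) signal hexamer (AATAAA or ATTAAA) lay in the last 50 bases of a model of 17 members, which were 2 of the 6 H1, 2 of the 20 H2A, 6 of the 19 H2B, 1 of the 12 H3 and 6 of the 13 H4 genes. How many genes of the whole annotation hold it was not counted. These 17 genes held 213, 128 and 204 reads, or 63.1 ± 4.84% of the members' reads (SD, n = 3). Of their 545 reads, Hist3h2a had 226 and Hist2h2be had 96. The 53 genes without it held 157, 64 and 110 reads, and include the 11 whose models stop at the coding sequence. Median exon lengths were 1560 bases with the hexamer and 482 without. The medians were 0.192 CPM for the genes with the hexamer and 0.0680 CPM for those without. Per kilobase of GENCODE exon, they were 0.182 and 0.113 CPM per kb, and per kilobase of RefSeq gene length 0.442 and 0.121 CPM per kb. The RefSeq length is the span of the gene, introns included. For most genes with the hexamer it ends a few bases after the stem-loop, so it leaves out the end that holds the hexamer.

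Hist3h2a, Hist2h2be, Hist1h1c, Hist2h4, Hist1h4i, Hist3h2ba and Hist4h4 all had the hexamer, which makes 7 of the 8, and also 7 of the 10, members with the most reads. Among these 10, Hist2h2bb, whose models stop at the coding sequence, Hist1h2ao and Hist1h4d lacked it. Not every gene with the hexamer was read, since Hist1h1t and Hist1h4j had no read. Members whose model runs more than 100 bases past the stem-loop, 23 genes with a median length of 1249 bases, held 58.8 ± 2.39% of the reads. Members whose model ends within 100 bases of it, 23 genes with a median length of 485 bases, held 16.2 ± 1.33% (SD, n = 3). Per kilobase the gap in reads did not show in the medians, which were 0.146 CPM per kb for the members with the longer ends and 0.159 for those with the shorter ends on GENCODE exons, and 0.185 and 0.149 CPM per kb on RefSeq gene lengths.

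Near-identical copies make the count of a single histone gene uncertain. The median member shared 61.0% of its 31-base words with another gene, overlapping genes included, and the range was 0 to 100%. Hist2h2aa1, Hist2h2aa2, Hist2h2bb, Hist2h3b and Hist2h3c1 had no word of their own, and 15 members shared over 90%. The sharing was 2.82% for Hist2h2be, 2.56% for Hist2h4, 11.4% for Hist1h1c and 32.1% for Hist3h2a. The 26 members that shared under 50% held 67.9 ± 4.52% of the reads, and the other 44 held 32.1 ± 4.52% (SD, n = 3). Their median lengths were 1025 and 474.5 bases, and their median levels 0.0760 and 0.0726 CPM. Per kilobase of GENCODE exon the medians were 0.0942 and 0.166 CPM per kb, lower for the members that shared less. Another gene's annotation overlapped 26 members, and for 19 of them that gene was a microRNA gene.

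**Figure D4:**
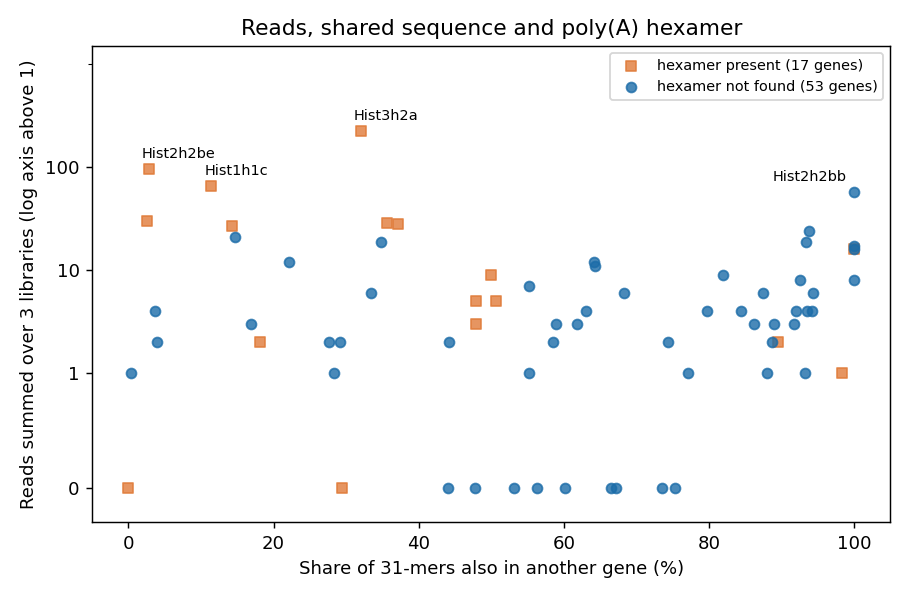
Reads of each clustered histone gene summed over the 3 libraries (log axis above 1) against the share of its 31-base words found in another gene, in percent. Squares mark the 17 genes with a poly(A) hexamer near the end of a model, among them Hist3h2a, Hist2h2be and Hist1h1c, and circles the other 53.

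H2A and H2B genes often stand back to back and share the stretch between them. Such divergent pairs with starts within 1000 bases numbered 14, at distances of 173 to 306 bases. The H2A gene had more reads in 11 pairs and the H2B gene in 3, with 321 reads on the H2A side, 226 of them on Hist3h2a, and 117 on the H2B side over the 3 libraries. The larger H2A total rested on Hist3h2a. Outside the pairs of Hist3h2a, Hist2h2ac, Hist1h2ao and Hist1h2ap, no gene had more than 8 reads, so the direction there is uncertain. Hist3h2a had 226 reads and its partner, the pseudogene Hist3h2bb-ps, had 2. Hist1h2ao had 24 reads against 1 of Hist1h2bq, and Hist1h2ap had 19 against 2 of Hist1h2br. The opposite held for Hist2h2ac with 12 reads against 96 of Hist2h2be, for Hist1h2ac with 3 against 6 of Hist1h2bc, and for Hist1h2an with 3 against 5 of Hist1h2bp. These pairs were chosen after their values were seen. The share of 31-base words also found in other genes was 93.8% for Hist1h2ao, 98.3% for Hist1h2bq, 93.4% for Hist1h2ap and 89.5% for Hist1h2br.

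The stretch between the most unequal pair is shown because both starts lie beside it. It is taken from the RefSeq promoter table (GRCm38.p6) and reads toward Hist3h2a, with matches to 3 promoter motifs in capitals.
Hist3h2a and Hist3h2bb-ps, chr11:58954513-58954684, plus strand: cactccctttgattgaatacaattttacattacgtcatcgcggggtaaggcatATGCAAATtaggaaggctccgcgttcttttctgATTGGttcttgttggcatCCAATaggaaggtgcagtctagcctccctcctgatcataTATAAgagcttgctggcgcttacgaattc

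The motifs were the octamer ATTTGCAT, the CCAAT box and TATAA, each searched on both strands. In the 172 bases above, the octamer match began 119 bases before the start of Hist3h2a, the CCAAT box matches 86 and 68 bases before it, and the TATAA match 29 bases before it. The table held promoter windows (250 bases before a start to 50 after it) for 62 of the 70 members, 63 windows in all. The octamer was in 14 of the 63 windows (22.2%), 7 of 18 of H2A genes and 7 of 17 of H2B genes and none of the other types, against 1.74% of all 32851 windows. Windows of divergently paired genes can overlap, so the same match can be counted for both genes and the windows are not independent. The CCAAT box was in 85.7% of the members' windows and 37.4% of all windows, but in only 3 of the 12 H4 windows. TATAA was in 79.4% of the members' windows and 24.9% of all windows.

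**Figure D5:**
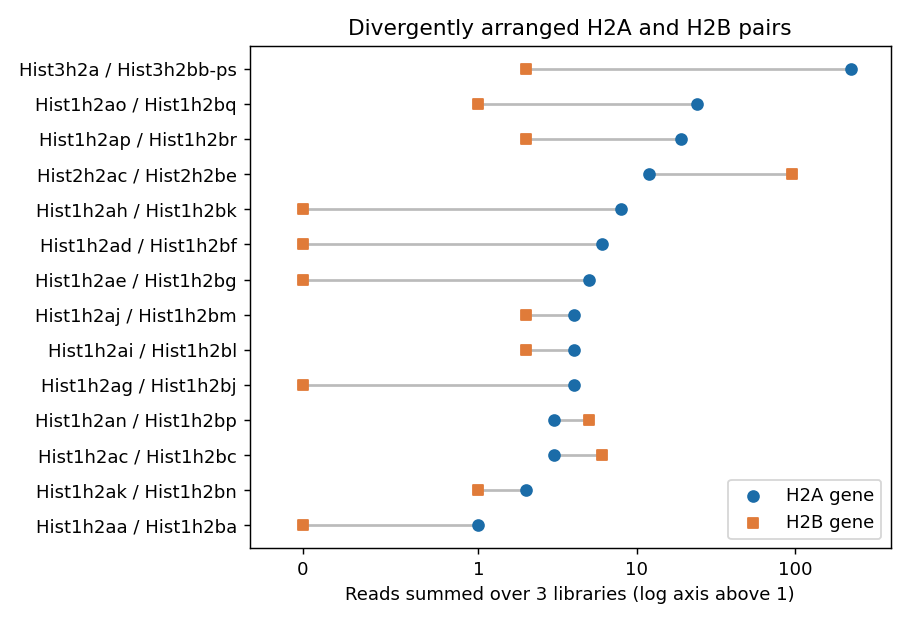
Reads summed over the 3 libraries for the H2A gene (circles) and the H2B gene (squares) of each of the 14 divergent pairs, on an axis that is logarithmic above 1. The H2A gene lies to the right in 11 pairs, and the gap is widest for Hist3h2a with Hist3h2bb-ps.

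Differences between the libraries were tested over the whole table against counting noise. At least 1 CPM in at least 2 libraries was reached by Hist3h2a, Hist2h2be and Hist1h1c, 3 of the 70 members against 30.1% of all symbols. None of the 3 was called as varying (edgeR likelihood-ratio test, Benjamini-Hochberg adjusted over 13500 genes), against 13.7% of all tested genes called. In the same test none of the 3 had an unadjusted p under 0.05, against 3749 of the 13500 genes. The adjusted p was 0.268 for Hist3h2a, 0.925 for Hist2h2be and 0.999 for Hist1h1c, with log2 ranges between libraries of 0.47, 0.17 and 0.01. No member reached 10 CPM.

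With every gene that had at least 1 read tested, 59 members entered and again none was called, against 7.28% of the genes. An unadjusted p under 0.05 was found for 7 of the 59, against 20.2% of the genes. The lowest was that of Hist4h4, named after its value was seen, with 6, 4 and 17 reads and an adjusted p of 0.0504 in the same edgeR test. The others were Hist2h2aa2, Hist1h4k, Hist1h3e, Hist1h2bp, Hist1h2bc and Hist1h2ah. Members this low can show only large differences, and a p above the threshold does not show that the libraries were alike.

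Cell markers matched the labelled cell type. All 12 T cell markers reached 100 CPM, with a summed level of 4754 ± 103 CPM (SD, n = 3). The B cell markers summed to 22.2 ± 1.20 CPM, monocyte and macrophage markers to 10.2 ± 0.662 CPM with 4 of 9 at 0, erythroid markers to 6.86 ± 0.444 CPM, and neutrophil markers to 0.358 ± 0.281 CPM with 5 of 10 at 0. Of the erythroid genes, Gata1 had 87, 63 and 85 reads, Hba-a1 had 17, 7 and 11 and Hba-a2 had 18, 14 and 12, whereas Alas2 had no read. Hbb-b1 and Hbb-b2 also had no read, but GENCODE vM21 holds no gene under these symbols. Their counts of 0 therefore do not show that beta-globin RNA was absent. The share of the clustered histone reads that came from cells other than T cells was not tested.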

How the data were processed

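The values analysed are unnormalized whole-number counts of reads by gene symbol, deposited by the authors as a single table whose 3 columns are the 3 libraries. Per the labels' protocols, total RNA came from a Trizol extraction and the libraries from an Ion Proton kit. The submitters' processing notes give the build mm10. How reads were aligned and counted, with which annotation, by strand or not, and what was done with multiply mapping reads is not given in the sources used here. CPM is counts per 1000000 counts of the library.

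The members and all lists were chosen with earlier results of these data known. Named with values were the 4 members of each histone type with the highest mean CPM, members called as varying, genes of the ratios and at most 4 genes of each other list; members without a read are named only. The genes of the divergent pairs and those said to be chosen after their values were seen fall outside this rule. With 1 group, edgeR's quasi-likelihood test could not be applied; differences between libraries were tested with edgeR 4.0.16 (TMM factors, dispersion 0, likelihood-ratio test, adjusted p under 0.05), tested first on simulated data. Ratios had 0.5 added to each sum of reads. Exon lengths (for 30997 symbols), 31-base words and 3′ ends came from GENCODE vM21; promoter windows and RefSeq gene spans from RefSeq tables. Alternatives used DESeq2 1.42.0 size factors, other filters, other scalings and each library left out. The software was Python 3.11.15 (pandas 2.3.3, numpy 2.4.6, matplotlib 3.10.9, scipy 1.17.1) and R 4.3.3.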

Additional observations from a re-analysis of the deposited data

How the results depend on the processing

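Of 104 values computed under alternative settings, 84 stayed within the spread between replicates (counts within 1.5 times), 19 moved further and 1 reversed. The reversed value was the log2 ratio of H2A to H2B, -0.51 without Hist3h2a. That of H2A to H2afz and H2afv without it was -4.24, and both alternatives were chosen after seeing the data. Some of the 84 could not move. Library scaling cancels in a share of the members' reads, and all 6 H1 genes shared under 50% of their words, which left the H1 ratio unchanged. Most counts of members called as varying rested on 3 or fewer tested genes. Per kilobase of exon, the log2 ratios of H3, H2A and H1 to their replacement genes were -6.07, -1.95 and -2.08; over genes sharing under 50% of their words those of H3 and H2A were -12.35 and -3.52, and H3 to H4 was -5.55. The number of genes varying between the libraries was 95 with a common dispersion, 886 among genes sharing under 5% of their words (6832 tested), and 742 to 1193 with 1 library left out, against 1847; no clustered histone gene was called in any of these, and above a filter of 10 CPM no member remained to test. With replicate 1 left out, the unadjusted p of Hist3h2a was 0.0388, and its edgeR adjusted p ranged from 0.204 to 0.886 over the alternatives that tested it. Over genes sharing under 50%, the members' summed level was 12.6 CPM, the H1 share 15.7% and the H3 share 0.286%. Per kilobase of exon, the H1 share was 6.04% and the median level 0.135 CPM per kb, or 0.130 per kb of RefSeq gene length, an alternative chosen after seeing the data; the mean in place of the median was 0.266 CPM. No paired analysis was possible because there is only 1 group of libraries. Depth limits single members: 1 read was 0.0525 to 0.0789 CPM.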
